A study of Saccharomyces cerevisiae with 15 samples.

Results

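The 60 genes described here encode ribosome biogenesis factors of budding yeast, Saccharomyces cerevisiae. They were chosen by gene symbol from a list of processing and assembly factors of the small and the large ribosomal subunit and all 60 were measured, out of 5656 genes on the array. They had 79 of the 9275 probe sets that were not controls: 55 genes had 1 probe set each and the other 5 had several. By role, 16 members act on the small subunit, 35 on the large subunit, 3 are core proteins of the box C/D small nucleolar ribonucleoproteins (snoRNPs), and 6 act on both subunits or elsewhere.

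RNA was measured with 15 Affymetrix arrays in 5 groups of 3: the ume1Δ, mbf1Δ and bna4Δ strains, each expressing Htt103Q, and otherwise wild-type cells expressing Htt103Q or Htt25Q. Htt103Q and Htt25Q are fragments of human huntingtin with 103 and 25 glutamines in a row. The long form is a yeast model of the mutant protein of Huntington's disease, and the series names the 3 deletions as suppressors. All strains were MATa haploids of the BY4741 background, and all were grown in galactose medium without uracil, the sugar that the labels give as the inducer of Htt103Q. Cultures of 12 mL were grown at 30 °C with 2% galactose, from an optical density (OD600) of 0.2 to 1.0. UME1 encodes a subunit of Rpd3 histone deacetylase complexes, MBF1 a transcriptional coactivator and BNA4 kynurenine 3-monooxygenase. The labels do not say whether replicates were separate cultures, so every p measures only the spread between these samples.

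A new ribosome starts in the nucleolus, where RNA polymerase I makes 1 long precursor of the ribosomal RNAs. The box C/D snoRNPs methylate it, and the small subunit processome, a large assembly built around the U3 snoRNA, folds and cleaves it. Large subunit factors (helicases, GTPases, scaffold and placeholder proteins) then bring the other precursor through the nucleolus, the nucleus and the export step. In yeast the genes of these factors are known to be regulated together, high in fast growth and low in stress or after a block of growth signalling.

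Values are log2 signals, quantile normalized across the 15 arrays, so a value is relative to the rest of its array, and levels are compared only within a probe set. The member signals spanned 4.04 to 12.98, and no member came within 0.1 of the lowest normalized value of 2.04 in any group. The deposited values came in 2 processing sets with different lowest values: ume1Δ, Htt103Q and Htt25Q in the first, mbf1Δ and bna4Δ in the second. The deleted gene was low in its own strain, with UME1 at 2.33 in ume1Δ, MBF1 at 2.09 in mbf1Δ and BNA4 at 2.12 in bna4Δ, and at 5.14 to 11.6 in the other groups. The 6 markers of MATa cells had group means of 7.50 to 12.8. Of the 4 markers of the opposite mating type, the α factor gene MF(ALPHA)2 was at 2.04 to 2.06, MF(ALPHA)1 at 2.27 to 5.64, STE3 at 2.27 to 4.08 and SAG1 at 5.18 to 5.69. Of the 4 marker genes that are mutated in BY4741, LEU2 and MET17 were at 2.04 to 2.58, but HIS3 was at 9.29 to 9.86 and URA3 at 8.90 to 10.3.

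Array 1 of Htt25Q stood apart from its group. The counts of calls, the medians by role and most named calls that rest on it are therefore also given without it. Counts of members without overlap against Htt25Q are given with all arrays only. The 3′ probe set for actin read 2.25 above the 5′ one there, while in every other array that gap was −0.37 to 0.32 (this control tracks how complete the labelled RNA is). As a median over the 60 members, the signal above the gene's Htt103Q mean was 1.50 in array 1 of Htt25Q, against 0.58 and 0.56 in arrays 2 and 3. In array 1 of ume1Δ the 18S ribosomal RNA control had a signal of 10.5, above the 6.11 to 8.17 of the other 8 arrays of its set. In the mbf1Δ and bna4Δ arrays of the second set, this control was at 9.60 to 11.2.

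Expression of the long fragment came with lower signals of the ribosome biogenesis factors. In Htt103Q against Htt25Q, 20 of 60 members were called lower and 0 higher at a limma adjusted p under 0.05 over all probe sets, while 3.38% of all genes were lower and 3.04% higher. The log2 fold change of the members ran from −1.84 to −0.11 with a median of −0.82, a 1.77-fold lower signal, and all 60 lay below 0, where 51.6% of all genes did. The median over all genes was −0.01. In 46 members all 3 arrays of Htt103Q lay below the 3 of Htt25Q, which held for 12.7% of all genes. The arrays measured RNA of whole cultures, in which a lower level in every cell and a larger share of cells with a low level cannot be told apart.

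**Figure D1:**
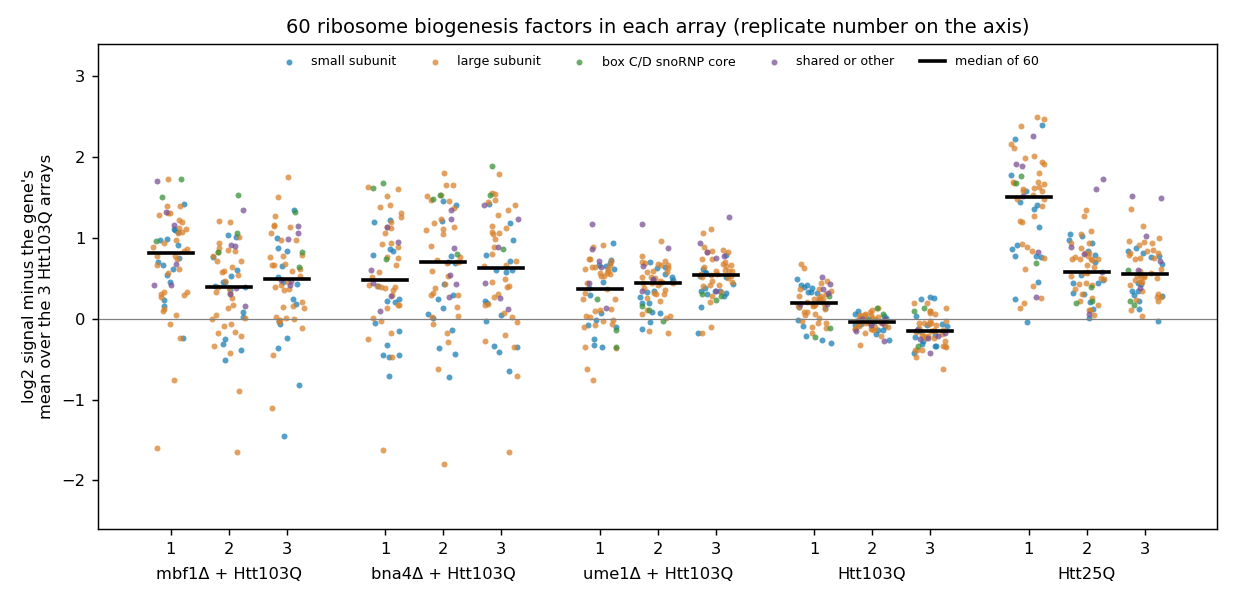
Signal of each of the 60 members in each of the 15 arrays, as log2 signal minus the gene's mean over the 3 Htt103Q arrays (y axis), by array and group (x axis), with colour for the role and a black bar for the median. The Htt25Q medians of 1.50, 0.58 and 0.56 and the ume1Δ medians of 0.37, 0.44 and 0.54 lie above the Htt103Q medians of 0.20, −0.04 and −0.15.

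The plot of all members by array showed the same order in medians. The Htt103Q arrays had member medians of 0.20, −0.04 and −0.15 around their own mean, and all 3 Htt25Q arrays lay above them, array 1 by far the most. Without array 1 of Htt25Q, 22 members were called lower, 17 of them among the 20, against 3.87% of all genes. The median was then −0.55, and all 60 members still lay below 0. The count was lower when single Htt103Q arrays were left out, with 10 members without array 2 and 11 without array 3. Fitted to the 9 arrays of the first processing set alone, with fewer residual degrees of freedom, the comparison called 5 members: DBP2, NSR1, RRP9, RLP7 and RLP24.

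The largest falls were those of DBP2 and NSR1, both among the shared members. DBP2, a DEAD-box RNA helicase with roles in ribosomal RNA processing and messenger RNA turnover, had log2 signals of 9.94, 9.14 and 9.17 in Htt103Q, against 11.68, 11.15 and 10.94 in Htt25Q. Each Htt103Q array lay at least 1 unit below each Htt25Q array. The difference was −1.84 ± 0.24 (SE), a 3.58-fold lower signal (adjusted p = 0.00155), and the gene's other probe set fell too (−1.71, adjusted p = 0.00546). NSR1, the yeast counterpart of nucleolin, which binds the ribosomal RNA precursor, had 10.03, 9.63 and 9.47 in Htt103Q, against 11.62, 11.32 and 11.21 in Htt25Q. The groups were far apart, by −1.67 ± 0.15 (adjusted p = 0.000182), the smallest p of any member. REX4, a predicted RNA exonuclease, also fell, by 0.91 (adjusted p = 0.0183). RRP12, which takes part in the export of both subunits, had 8.85, 8.67 and 8.49 in Htt103Q, against 10.56, 9.25 and 9.39 in Htt25Q. Its Htt103Q arrays lay below all of Htt25Q, but the wide Htt25Q spread left it short of the threshold (adjusted p = 0.0627). HAS1, a helicase needed for both subunits, and RRP5, which binds the precursor at sites for both, had log2 fold changes of −0.56 and −0.65 and were not called.

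Among the 35 large subunit factors, 13 fell, and the median log2 fold change was −0.85, against 12 and −0.60 without array 1 of Htt25Q. SSF1, a Brix domain protein of early pre-60S particles, had 7.58, 7.46 and 6.94 in Htt103Q, against 9.80, 8.67 and 8.48 in Htt25Q. It fell by 1.65 ± 0.30 (adjusted p = 0.0107), with no overlap of the groups. SDA1, a late nuclear pre-60S factor, had 7.27, 7.12 and 7.49 in Htt103Q, against 9.68, 8.37 and 8.14 in Htt25Q, a difference of −1.44 ± 0.33 (adjusted p = 0.0331). The groups again did not overlap, and array 1 of Htt25Q alone stood more than 1 unit above the other arrays of its group. NOG2, a GTPase that checks pre-60S particles before export, had 10.13, 9.24 and 8.97 in Htt103Q, against 10.93, 10.72 and 10.81 in Htt25Q. Here array 1 of Htt25Q lay with its group, and the difference was −1.37 ± 0.22 (adjusted p = 0.00553). The second probe set of NOG2 was not called (−0.63, adjusted p = 0.564).

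The other large subunit factors with named falls were NOG1, a GTPase of nucleolar pre-60S particles (−1.22 ± 0.20, adjusted p = 0.00619), and RPF1, another Brix domain protein (−1.22 ± 0.27, adjusted p = 0.0311). NOC2, which pairs with the proteins of MAK21 and NOC3 on pre-60S particles, fell as well (−1.06 ± 0.25, adjusted p = 0.0384). Its partners MAK21 and NOC3 had log2 fold changes of −0.99 and −0.71 and were not called. The remaining 7 called were MAK16, RLP24, DBP7, SPB1, RRP15, RLP7 and NOP16, with log2 fold changes of −1.05 to −0.62. Just inside the threshold stood SPB1, a ribosomal RNA methyltransferase, at −0.91, and RRP15 at −1.01 (adjusted p = 0.0464 for each). Just outside stood NOP4 at −1.17 (adjusted p = 0.0512) and the helicase DBP3 at −0.76 (adjusted p = 0.0540). NOP7, ERB1 and YTM1, whose proteins form 1 complex, had log2 fold changes of −0.80, −1.02 and −1.0 and were not called. The smallest difference was that of TIF6, the factor that keeps the 2 subunits from joining early, at −0.12.

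Of the 16 small subunit factors 4 fell, with a median of −0.73 over all 16, against 5 and −0.44 without array 1 of Htt25Q. NOC4, which works with NOP14, had 7.44, 7.08 and 6.84 in Htt103Q, against 9.34, 8.14 and 7.90 in Htt25Q. The groups did not overlap and differed by −1.34 ± 0.32 (adjusted p = 0.0419). UTP5, a scaffold protein of the UtpA complex that is first to bind the precursor, had 8.82, 8.23 and 8.18 in Htt103Q, against 10.19, 9.46 and 9.25 in Htt25Q. All Htt103Q arrays were lower, yet UTP5 was not called (−1.22 ± 0.43, adjusted p = 0.157). DBP8, a helicase of the processome, had 7.77, 7.21 and 6.85 in Htt103Q, against 8.64, 8.21 and 8.15 in Htt25Q. It fell by 1.06 ± 0.20 (adjusted p = 0.0138), again with no overlap.

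The other 2 called small subunit factors were UTP15 of the UtpA complex (−0.84 ± 0.15, adjusted p = 0.00899) and RRP9, a U3 snoRNA-specific protein (−0.78 ± 0.13, adjusted p = 0.00758). The further UtpA members UTP4, UTP8 and UTP10 had log2 fold changes of −0.51, −0.88 and −0.64, and the UtpB member UTP13 one of −0.68, none of them called. MPP10, IMP3 and IMP4, which form a complex that joins U3 to the precursor, were at −0.56, −0.54 and −0.77 and were not called. UTP22 showed the smallest difference of all members, −0.11, with overlapping groups. Over the 12 factors of the UTP, IMP and NOP14 names alone, 1 fell, and the median was −0.66, against 2 and −0.42 without array 1. The difference between the small and the large subunit medians was 0.13, with 0.09 to 0.27 when single arrays were left out, so the large subunit factors stood lower in each such fit. Genes are not replicates of a condition, and this difference was not tested.

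None of the 3 box C/D snoRNP core genes was called. NOP58 had 11.50, 11.27 and 10.87 in Htt103Q, against 12.98, 11.61 and 11.81 in Htt25Q. NOP56, which pairs with it in the snoRNP, had 9.25, 9.60 and 9.58 in Htt103Q, against 11.15, 9.67 and 9.65 in Htt25Q. NOP1, the methyltransferase fibrillarin, had 10.08, 10.19 and 10.33 in Htt103Q, against 10.90, 10.42 and 10.43 in Htt25Q. All 3 genes had every Htt103Q array below every Htt25Q array, by −0.92, −0.68 and −0.38 in the means. For NOP56, arrays 2 and 3 of Htt25Q lay close above the highest Htt103Q array, and without array 1 the log2 fold change was −0.19. That of NOP58 was then −0.50 and that of NOP1 −0.22, neither called.

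**Figure D2:**
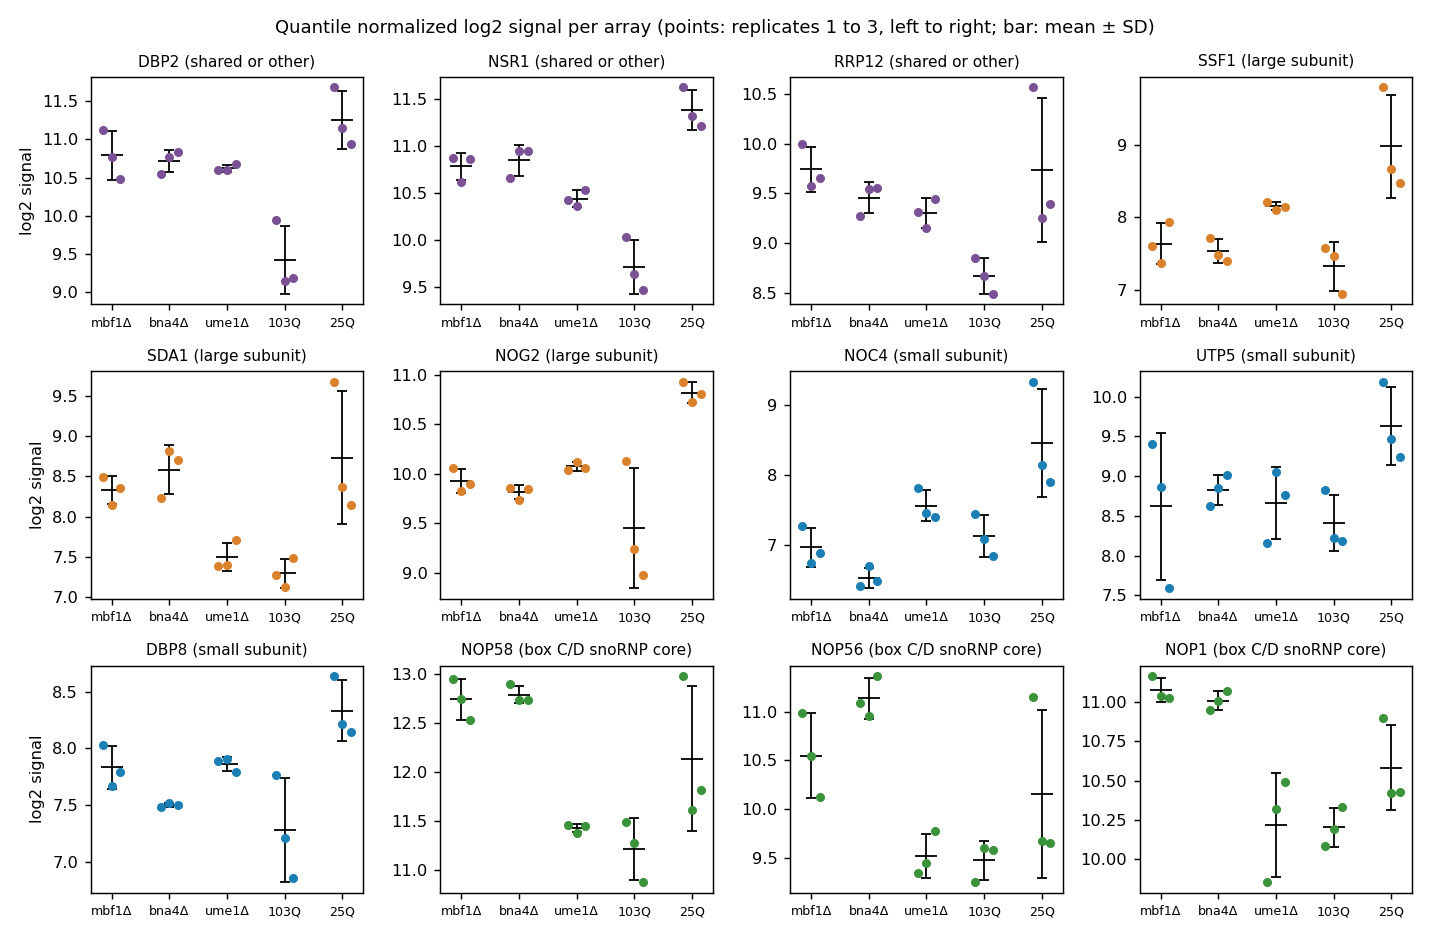
Log2 signal (y axis) of 12 members, 3 per role with the largest fall in Htt103Q against Htt25Q, in the 3 arrays of each group (points, replicates 1 to 3 from left to right; bars, mean ± SD). In each of the 12 genes all Htt103Q points lie below all Htt25Q points, and array 1 is the highest Htt25Q point in all 12.

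How far the falls leaned on array 1 of Htt25Q differed between members. Without it, HAS1, NOP4, RRP12, RRS1 and IMP3 passed the threshold and SPB1, NOC2 and RRP15 no longer did, at −0.63, −0.80 and −0.73. The 20 calls of the whole data included 13 large and 4 small subunit factors, the 22 without array 1 included 12 and 5. DBP2 and NSR1 kept log2 fold changes of −1.63 and −1.55 without it. NOG2 was at −1.32, almost as with all arrays. DBP7 at −0.94, RLP24 at −0.86, MAK16 and RLP7 at −0.78 and NOP16 at −0.49 were still called. Also still called were SSF1 at −1.25, NOG1 at −0.99, REX4 at −0.95, SDA1 at −0.96, DBP8 at −0.90, NOC4 at −0.90, RPF1 at −0.85, UTP15 at −0.82 and RRP9 at −0.78. Of the members not called in either fit, UTP5 was at −0.94 without array 1, YTM1 at −0.60, ERB1 at −0.52, NOC3 at −0.43, UTP10 at −0.26, NOP7 at −0.24 and RRP5 at −0.22. UTP20 moved most, with −0.07 without array 1 and −0.85 with it, and MAK21 was next, with −0.24 without it and −0.99 with it. Over all 15 fits that each left out 1 array, DBP2, NSR1, NOG2 and NOG1 stayed called, with highest adjusted p of 0.0107, 0.00191, 0.0332 and 0.0299. SSF1 and DBP8 each lost the call in 1 of 15, RPF1 in 5, SDA1 in 6, NOC2 in 9 and NOC4 in 11. With only the 6 arrays of Htt103Q and Htt25Q fitted, none of DBP2, NSR1, NOG2 and NOG1 was called. DBP2 and NSR1 then had adjusted p of 0.158 and 0.0733.

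**Figure D3:**
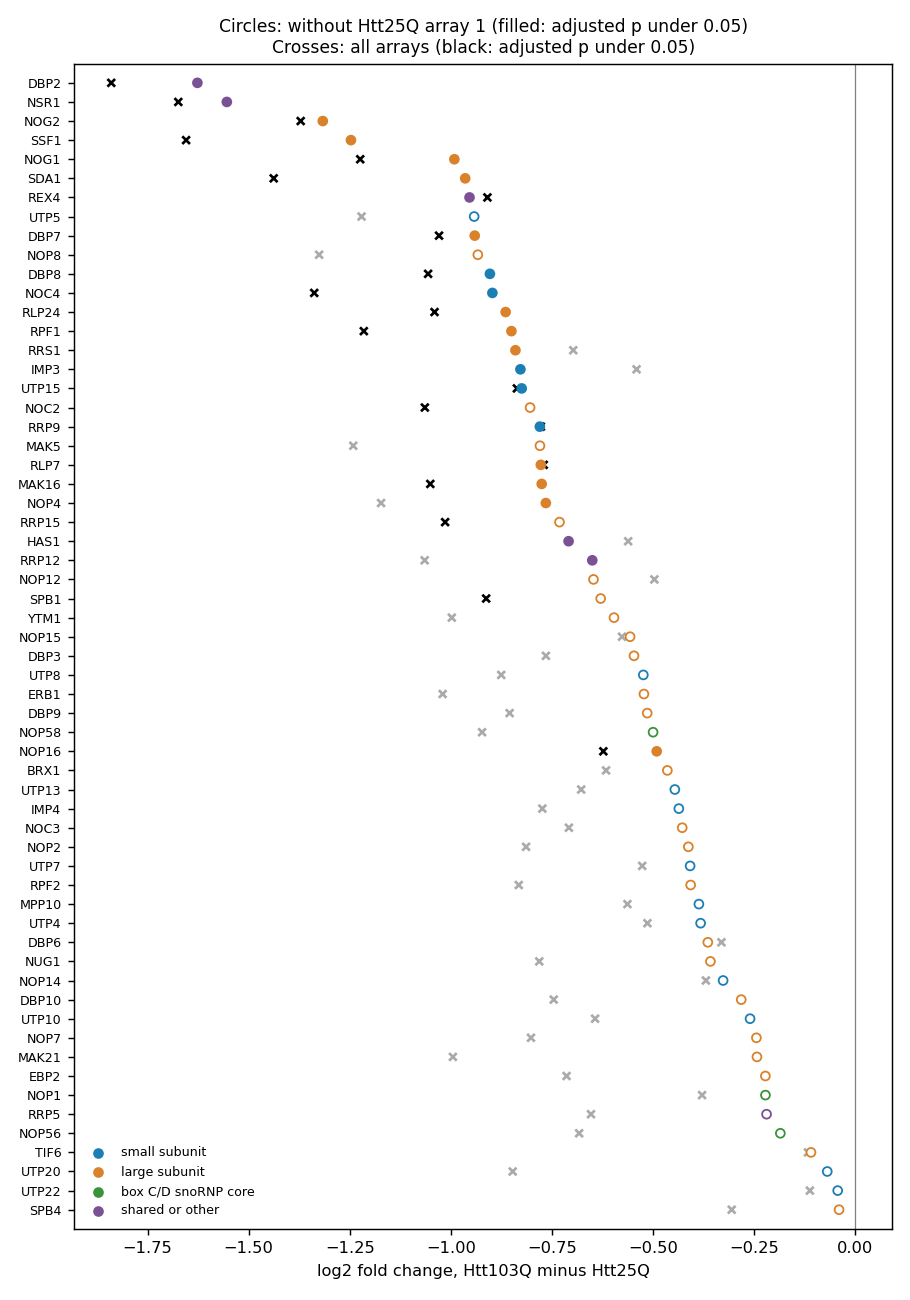
Log2 fold change of Htt103Q against Htt25Q (x axis) for each of the 60 members (rows), without array 1 of Htt25Q (circles, coloured by role, filled where the adjusted p is under 0.05) and with all arrays (crosses, black where it is under 0.05). All 60 circles and all 60 crosses lie below 0, and most circles lie nearer to 0 than their cross.

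The deviation of array 1 from arrays 2 and 3 of Htt25Q went with the length of the gene among the members. Across the 60 genes, which share these 3 arrays, Pearson's r between that deviation and the length was 0.47 and Spearman's rho 0.38. The median deviation was 0.46 in the 20 shortest (552 to 1380 bases), 0.84 in the middle 20 (1383 to 1992) and 1.1 in the 20 longest (1993 to 7482), with 15, 17 and 20 of them above 0. UTP20, the longest member, stood 2.33 higher in array 1, and IMP3, the shortest, 0.86 lower. Over 4644 coding genes with a mean signal at or above that of the dimmest member, r was 0.06, the median deviation 0.03, and 51.6% lay above 0, against 86.7% of the members. The 18 general stress markers had the opposite deviation, with medians over genes of −1.52 in array 1, against −0.26 and −0.14 in arrays 2 and 3, relative to their Htt103Q means. The part of RNA length and of stress genes in the member values of array 1 was not tested.

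**Figure D4:**
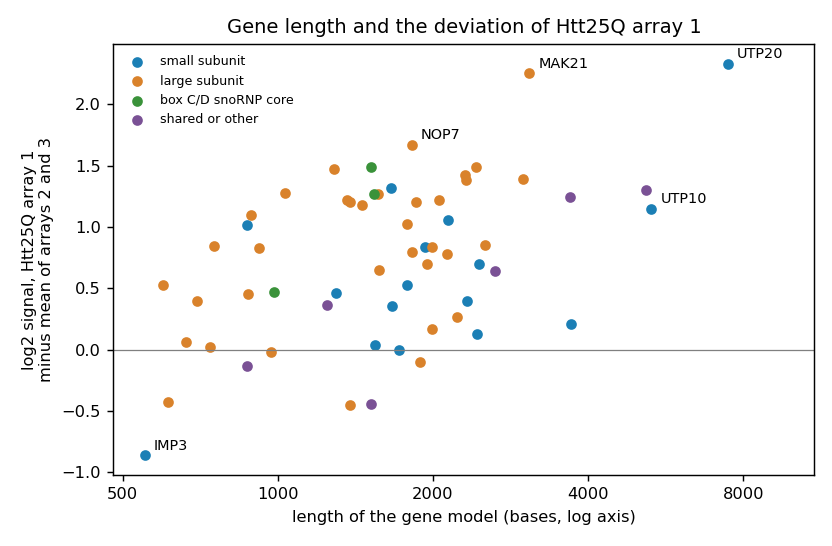
Log2 signal of array 1 of Htt25Q minus the mean of arrays 2 and 3 (y axis) against the length of the gene model in bases (x axis, log scale) for the 60 members, coloured by role. Longer members tend to lie higher, from IMP3 at −0.86 to UTP20 at 2.33, and 52 of 60 points lie above 0.

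The 105 measured genes on a list of further ribosome biogenesis factors gave like counts in Htt103Q against Htt25Q. Of these 105, 30 fell and 0 rose, the median log2 fold change was −0.83, and 104 lay below 0. In array 1 of Htt25Q they stood 1.44 above their Htt103Q means in the median, against 0.51 and 0.54 in arrays 2 and 3. Without array 1, 31 fell and 0 rose, the median was −0.53, and 103 lay below 0. IPI1, of the Rix1 complex on pre-60S particles, fell by 1.65, FAL1, a small subunit helicase, by 1.55, and FYV7, a small subunit processing factor, by 1.51; without array 1 they fell by 1.34, 1.2 and 0.99. Of 15 genes on a list of ribosome biogenesis regulators, some of which act on ribosomal protein genes, 1 was called lower and 0 higher. It was TOD6, a repressor that binds upstream of ribosome biogenesis genes, at 6.88 ± 0.67 in Htt103Q, against 8.56 ± 0.20 in Htt25Q (SD, n = 3 each; log2 fold change −1.68, adjusted p = 0.0204). SFP1, an activator of ribosome biogenesis genes, had a log2 fold change of 0.66 and was not called (adjusted p = 0.326). Without array 1 of Htt25Q, TOD6 was at −1.79 and still called, IFH1, a coactivator of ribosomal protein genes, was called lower as well (−0.56, adjusted p = 0.0491), and SFP1 was at 0.17. Of the 18 general stress markers 2 rose, the stress-induced Hsp70 gene SSA4 by 2.96 and the small heat shock protein gene HSP26 by 2.44, and 0 fell. The median of these 18 was 0.61, and 0.29 without array 1, when both genes were still called.

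Members also varied together over single arrays. Over the 9 arrays of ume1Δ, Htt103Q and Htt25Q, each member's Pearson correlation with the median of the other members ranged from 0.18 (IMP3) to 0.98 (RPF1), with a median of 0.90. The corresponding median over 5550 other genes was 0.05. Without array 1 of Htt25Q the members' median was 0.83, and IMP3 was at 0.87. The lowest were then UTP22 at −0.28, UTP20 at −0.04 and SPB4 at −0.03. Over the 6 arrays of mbf1Δ and bna4Δ the members' median was 0.47. These correlations include the differences between the groups as well as those between replicates. The 5 other genes most like the member median over the 9 arrays were ECM1 (r = 0.99), a pre-60S export factor, GCD10 (0.99), a subunit of a transfer RNA methyltransferase, PNO1 (0.99), a small subunit factor, FYV7 (0.99), and PHO90 (0.98), a phosphate transporter. UTP22 and TIF6 were among the least alike members, at 0.25 and 0.30.

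Deletion of UME1 in cells with Htt103Q came with higher signals of some factors. In ume1Δ against Htt103Q, 7 members rose and 0 fell, against 2.12% of all genes higher and 1.15% lower. The median log2 fold change was 0.42, where that over all genes was 0.00. Of the 60, 55 lay above 0 and 5 below, while 49.8% of all genes lay below. In 26 members all ume1Δ arrays lay above all Htt103Q arrays, which held for 13.5% of all genes. Of the 7, 3 were shared factors, 3 of the large subunit and 1 of the small subunit. The role medians were 0.68 for the shared factors, 0.42 for the large subunit, 0.38 for the small subunit and 0.04 for the box C/D core.

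DBP2 had 10.60, 10.60 and 10.67 in ume1Δ, against 9.94, 9.14 and 9.17 in Htt103Q, and rose by 1.2 ± 0.24 (adjusted p = 0.0261). NSR1 had 10.42, 10.36 and 10.53 in ume1Δ, against 10.03, 9.63 and 9.47 in Htt103Q, a rise of 0.73 ± 0.15 (adjusted p = 0.0314). In both genes the ume1Δ arrays were tightly grouped and all higher. REX4 rose by 0.83 (adjusted p = 0.0387), so that 3 of the 6 shared factors were called. Among large subunit factors, DBP6, a helicase of early pre-60S particles, had 8.94, 8.78 and 8.90 in ume1Δ, against 8.47, 8.14 and 8.0 in Htt103Q. Its groups did not overlap, and the rise of 0.67 ± 0.11 had the smallest p of these 7 (adjusted p = 0.00702). RRS1, which brings the 5S RNA into the large subunit, rose by 0.80 (adjusted p = 0.0443), and RLP7, a placeholder resembling a ribosomal protein, by 0.66 (adjusted p = 0.0199). NOP14, a core small subunit factor, had 6.51, 6.59 and 6.92 in ume1Δ, against 6.36, 5.99 and 6.04 in Htt103Q, and rose by 0.54 (adjusted p = 0.0454), just inside the threshold with RRS1. Just outside were DBP7 at 0.74 (adjusted p = 0.0550) and RLP24 at 0.68 (adjusted p = 0.0554).

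The largest falls in Htt103Q were not all among these rises. NOC4 had 7.81, 7.46 and 7.40 in ume1Δ, against 7.44, 7.08 and 6.84 in Htt103Q, with overlapping arrays (0.44, adjusted p = 0.626). SDA1 had 7.39, 7.40 and 7.70 in ume1Δ, against 7.27, 7.12 and 7.49 in Htt103Q, also overlapping (0.21, adjusted p = 0.900). SSF1 had 8.21, 8.10 and 8.15 in ume1Δ, against 7.58, 7.46 and 6.94 in Htt103Q, with no overlap but no call (0.83, adjusted p = 0.235). The box C/D genes NOP58, NOP56 and NOP1 had log2 fold changes of 0.21, 0.04 and 0.02, all with overlapping arrays. The count of 7 moved with single arrays: it was 14 without array 1 of Htt25Q, which enters through the shared variance, and 11 without array 1 of Htt103Q. It was 1 without array 2 or 3 of Htt103Q or of ume1Δ, 3 without array 2 of bna4Δ, and 4 without array 2 of Htt25Q, array 1 of ume1Δ, array 3 of bna4Δ or array 3 of mbf1Δ. Without array 1 of both Htt25Q and ume1Δ it was 10, and in the first processing set alone only RLP7 was called. With only the 6 arrays of ume1Δ and Htt103Q fitted, only NOP16 was called, which was not among the 7. DBP6 stayed called in all 15 fits that left out 1 array, RLP7 lost the call in 4, DBP2 in 5, NSR1 in 6, REX4 and RRS1 in 11 and NOP14 in 12.

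**Figure D5:**
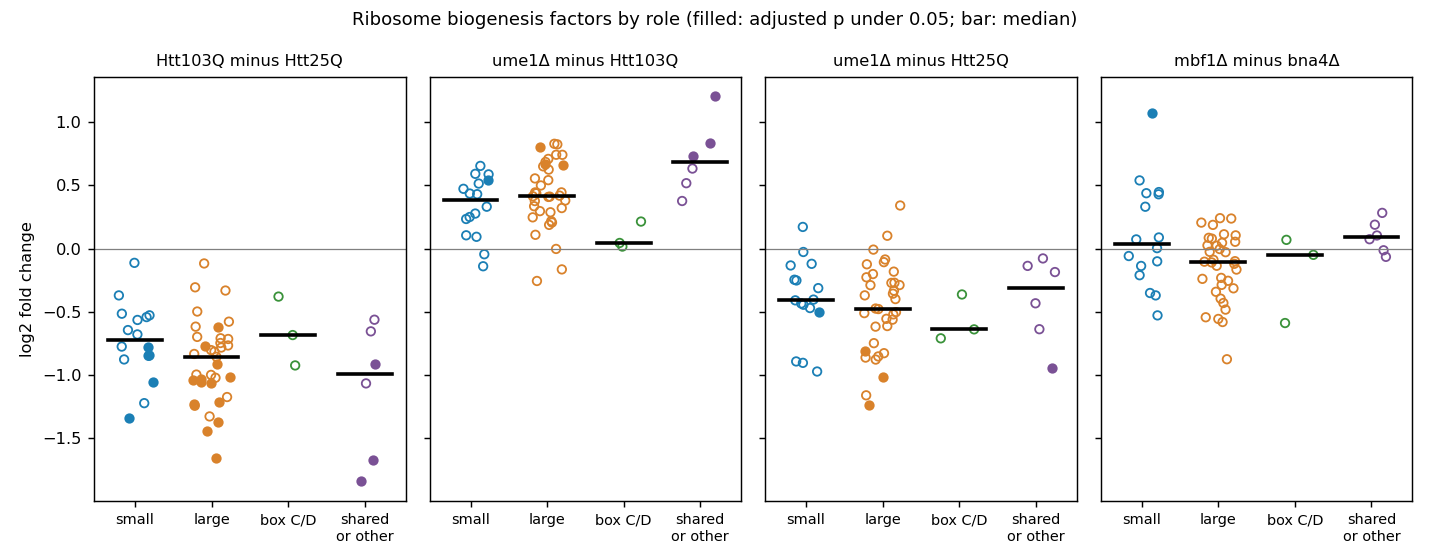
Log2 fold change (y axis) of each member by role (x axis) in the 4 comparisons within a processing set, with filled points for an adjusted p under 0.05 and black bars for the role median. The large subunit medians are −0.85 in Htt103Q against Htt25Q, 0.42 in ume1Δ against Htt103Q, −0.47 in ume1Δ against Htt25Q and −0.10 in mbf1Δ against bna4Δ. Without array 1 of Htt25Q, which is not plotted, those against Htt25Q are −0.60 in Htt103Q and −0.18 in ume1Δ.

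Against Htt25Q, a few members fell in ume1Δ, fewer without array 1 of Htt25Q. In this comparison 5 members fell and 0 rose, against 4.79% of all genes lower and 5.78% higher, and the median log2 fold change was −0.42, where that over all genes was −0.03. Of the 60, 57 lay below 0, where 53.1% of all genes did. In 21 members all ume1Δ arrays lay below all Htt25Q arrays, against 13.6% of all genes, and in 1 all lay above, against 13.1%. NSR1 had 10.42, 10.36 and 10.53 in ume1Δ, against 11.62, 11.32 and 11.21 in Htt25Q, with no overlap and a fall of 0.94 ± 0.15 (adjusted p = 0.00351). SDA1 fell by 1.23 (adjusted p = 0.0443), RRP15 by 1.02 (0.0314), NOG1 by 0.80 (0.0357) and RRP9 by 0.50 (0.0443). SDA1 and RRP9 stood just inside the threshold, and NOC2 (−0.88, adjusted p = 0.0580) and NOG2 (−0.75, adjusted p = 0.0663) just outside.

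These values also leaned on array 1 of Htt25Q. Without it 2 of 60 members fell, NSR1 by 0.82 and SDA1 by 0.76, while 4.97% of all genes fell, so the count of calls did not stand above the background share. The member median was then −0.19, where that over all genes was −0.01, and 45 members lay below 0, where 51.4% of all genes did. RRP15, NOG1 and RRP9 were at −0.73, −0.57 and −0.50 and not called. The count was also 2 without array 2 of Htt103Q, array 1 of bna4Δ or array 1 of mbf1Δ, 3 without array 2 of bna4Δ, and 1 without array 3 of bna4Δ, array 1 of ume1Δ or array 2 of ume1Δ. NSR1 stayed called in all 15 such fits (highest adjusted p of 0.0168), RRP15 lost the call in 4, NOG1 in 9, and SDA1 and RRP9 in 12 each. In the first processing set alone, NSR1 was the 1 member called. With only the 6 arrays of ume1Δ and Htt25Q fitted, NOG2 was the 1 member called and NSR1 was not. Without array 1 of both Htt25Q and ume1Δ, 42 members lay below 0 and NSR1 alone was called. Over the alternatives other than leaving out 1 array, the member median ran from −0.47 to −0.09. DBP6 was the member farthest above Htt25Q, with 8.94, 8.78 and 8.90 in ume1Δ, against 8.47, 8.63 and 8.51 in Htt25Q, all ume1Δ arrays higher but not called (0.34, adjusted p = 0.0802). The comparisons of Htt103Q with Htt25Q, ume1Δ with Htt103Q and ume1Δ with Htt25Q share arrays pairwise, so their values are not independent of each other.

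The other list and the regulators gave the following counts for ume1Δ. Against Htt103Q, 5 of the 105 further factors rose and 0 fell, with a median of 0.36, while 2.12% of all genes rose. BUD20, a pre-60S export factor, rose by 0.87, NOP19 of the processome by 0.86 and RNT1, the RNase that cuts the precursor's 3′ end, by 0.78. Against Htt25Q, 9 of 105 fell and 0 rose, with a median of −0.42, while 4.79% of all genes fell. PRP43, a helicase of ribosome assembly and splicing, fell by 1.16, IPI1 by 1.09 and UTP9 by 0.94. Without array 1 of Htt25Q, 6 of 105 fell, among them these 3, and the median was −0.15. In that fit 4.97% of all genes fell, so this count was near the background share. Of the 15 regulators, IFH1 rose by 0.56 against Htt103Q (adjusted p = 0.0453), and RAP1, which binds promoters of ribosomal protein genes, fell by 0.62 against Htt25Q (adjusted p = 0.0404), a call lost without array 1 of Htt25Q (−0.44, adjusted p = 0.0855). TOD6 was called in neither comparison, with 7.81 ± 0.25 in ume1Δ, 6.88 ± 0.67 in Htt103Q and 8.56 ± 0.20 in Htt25Q (SD, n = 3 each).

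Between the other deletion strains, which share a processing set, few members differed. In mbf1Δ against bna4Δ, 1 member rose and 0 fell, against 7% of all genes higher and 5.62% lower. The median log2 fold change was −0.04, with 0.04 for the small and −0.10 for the large subunit factors, and 34 members lay below 0, where 49.9% of all genes did. All mbf1Δ arrays lay below all bna4Δ arrays in 7 members and above them in 6, which held for 20.8% and 21.9% of all genes. The counts of calls and of groups without overlap were thus below the background shares.

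The 1 call was UTP22, a subunit of the UtpC complex of the processome. It had 8.75, 8.49 and 8.78 in mbf1Δ, against 7.69, 7.41 and 7.72 in bna4Δ. The groups were well apart, by 1.07 ± 0.15 (adjusted p = 0.000979), and the call held in all 15 fits without 1 array. Among its other 5 probe sets, 2 were also higher, by 2.29 and 2.21, and 3 were not called. In the second processing set alone UTP22 was again higher, and SPB1 and NOP4 were called lower. In the first processing set the same probe set of UTP22 had 7.81, 8.21 and 7.96 in ume1Δ, 7.87, 8.14 and 8.38 in Htt103Q and 8.38, 8.25 and 8.10 in Htt25Q, with all groups overlapping. UTP20 had no call by the probe set that represents it (adjusted p = 0.80), but 1 of its other 9 probe sets was higher in mbf1Δ (1.64, adjusted p = 0.0159). Just outside the threshold stood NOP14 at −0.37 (adjusted p = 0.0922) and UTP7, a small subunit factor, at −0.53 (adjusted p = 0.120). Of the 105 further factors, RRP14 fell, by 0.56, and 0 rose. Of the 15 regulators, 4 rose: ABF1, a general regulatory factor, by 1.34, SIN3, a subunit of Rpd3 complexes, by 0.96, the kinase SCH9 by 0.93, and the TOR kinase gene TOR1 by 0.77. STB3, a repressor that binds upstream of ribosome biogenesis genes, fell by 0.66.

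The mbf1Δ and bna4Δ strains can be set against Htt103Q only across the processing sets, so strain and set cannot be told apart in the following values. In mbf1Δ against Htt103Q, 24 members were higher and 2 lower, where 15.1% of all genes were higher and 23.2% lower. In bna4Δ against Htt103Q, 29 were higher and 3 lower, where 19.6% were higher and 29.2% lower. The member medians were 0.56 in mbf1Δ and 0.60 in bna4Δ, against −0.07 and −0.11 over all genes, so the members stood 0.63 and 0.70 above the rest. Below 0 lay 8 members in mbf1Δ and 11 in bna4Δ, where 55.6% of all genes did in each. All mbf1Δ arrays lay above all Htt103Q arrays in 30 members and below in 3, against 24.3% and 34.3% of all genes. All bna4Δ arrays lay above in 32 and below in 6, against 31.1% and 42.5%. With deposited values the member counts were 33 higher and 1 lower in mbf1Δ and 32 and 1 in bna4Δ, and the all-gene medians were 0.16 and 0.11. With deposited values centred on each array's median they were 19 and 3 in mbf1Δ and 26 and 4 in bna4Δ, and the all-gene medians were −0.25 and −0.28. Centring shifts every gene of an array alike, so it cannot change the distance between members and all genes. With deposited values, centred or not, that distance was 0.65 in mbf1Δ and 0.66 in bna4Δ. Of all called genes in mbf1Δ, 39.3% were higher with quantile normalized values, 69.6% with deposited and 27.1% with centred ones. In bna4Δ these shares were 40.1%, 61.9% and 29.9%.

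By role, the box C/D core stood highest. In mbf1Δ all 3 core genes were higher, with a median of 1.08, against 0.77 for the shared, 0.56 for the large and 0.44 for the small subunit factors. In bna4Δ all 3 were higher too, with a median of 1.58, against 0.57, 0.62 and 0.30. NOP58 had 12.95, 12.75 and 12.53 in mbf1Δ and 12.90, 12.74 and 12.74 in bna4Δ, against 11.50, 11.27 and 10.87 in Htt103Q. Its arrays in both deletions lay at least 1 unit above all Htt103Q arrays, with log2 fold changes of 1.53 in mbf1Δ (adjusted p = 0.00185) and 1.58 in bna4Δ (adjusted p = 0.00120). The largest rises also held RLP7 in both strains (1.45 in mbf1Δ and 1.62 in bna4Δ), DBP3 (1.48) and DBP2 (1.37) in mbf1Δ, and SPB1 (1.73) and NOP56 (1.66) in bna4Δ.

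TIF6 had the largest fall of any member in both strains. It had 8.80, 8.76 and 9.31 in mbf1Δ and 8.78, 8.61 and 8.76 in bna4Δ, against 10.78, 10.27 and 10.16 in Htt103Q. No array of the deletions reached the lowest Htt103Q array, and the log2 fold changes were −1.45 in mbf1Δ (adjusted p = 9.63e-05) and −1.69 in bna4Δ (adjusted p = 2.45e-05). In ume1Δ, in the first set, TIF6 had 10.77, 10.46 and 10.31, close to Htt103Q. The other called falls were SPB4, a large subunit helicase, in mbf1Δ (−0.70), and UTP22 (−0.53) and DBP6 (−0.29) in bna4Δ. With deposited values the falls of SPB4, UTP22 and DBP6 were not called, and that of TIF6 was. Of the 18 general stress markers, 5 were called lower in mbf1Δ and 10 in bna4Δ, where 23.2% and 29.2% of all genes were. The count in mbf1Δ was thus near the background share. The marker medians against Htt103Q were −0.42 in mbf1Δ and −0.92 in bna4Δ, where those over all genes were −0.07 and −0.11. The part of these markers in the member values was not tested.

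In the genome the members are spread over many chromosomes, and few of them are neighbours. Of the 60, 8 (13.3%) lie next to another member or a gene of the list of further factors, against 5.41% of 6021 coding genes (R64 assembly, coordinates from RefSeq). The 1 pair of members side by side is RRP15 (chromosome XVI, 818323 to 819075) and NOC4 (chromosome XVI, 819765 to 821423), a large and a small subunit factor. In Htt103Q against Htt25Q they had log2 fold changes of −1.01 and −1.34, and in ume1Δ against Htt103Q of −0.00 and 0.44. DBP2 (chromosome XIV, 413639 to 416281) and NSR1 (chromosome VII, 806412 to 807656), the members with the largest falls, have no such neighbour.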

How the data were processed

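RNA of 15 samples was measured on 1-colour Affymetrix yeast arrays after biotin labelling, per the labels. The authors deposited 1 log2 value per probe set and array. The sources used here do not say how probes were summarised and normalized. Since array medians differed by more than 0.1, the log2 values were quantile normalized across the 15 arrays, which makes every change relative to the rest of its array. Tests left out 60 control probe sets.

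limma (version 3.58.1, R 4.3.3) fitted 1 model with 5 group means to 9275 probe sets, with empirical Bayes moderation, two-sided tests and Benjamini-Hochberg adjustment, and was tested on simulated data. An adjusted p under 0.05 was a call. A gene was read from its probe set with the highest mean. Probe sets were named from the platform annotation, with symbols and positions updated to RefSeq R64. The number of arrays limits the precision.

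Members with values are the 10 largest called falls and rises per comparison and the nearest on each side of the threshold. Across processing sets they are the 4 largest each way. Members and lists were chosen with earlier results of these data known. REX4, RRP12 and other members outside this rule were named to account for every role. Alternatives changed the scaling, the arrays fitted, the variance model, the filter on dim probe sets and the reading of genes with several probe sets.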

Additional observations from a re-analysis of the deposited data

How the results depend on the processing

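No called result turned its direction under the alternatives run, which were those planned and the fits without array 1 of Htt25Q and ume1Δ that were chosen after seeing the data. Values near 0 with no test turned in sign: the member median in mbf1Δ against bna4Δ, to 0.05 without array 2 of mbf1Δ, and the small minus large subunit median in ume1Δ against Htt25Q. Counts of called members moved most. In Htt103Q against Htt25Q the 20 lower became 5 in the processing set alone, 3 with the 6 arrays alone, 34 with array weights, 7 without array 1 of Htt25Q in the set alone, and 10 to 24 with single arrays left out. In ume1Δ against Htt103Q the 7 higher became 1, 1, 29 and 2 under the same settings, and 1 to 14. With the 6 arrays alone, the 3 lower in Htt103Q were RRP9, RLP7 and NOP15, the last not among the 20. The 1 higher in ume1Δ was then NOP16, which was not among the 7. In ume1Δ against Htt25Q the 5 lower became 8 with median-centred values, 1 in the set alone, 1 with 6 arrays, 11 with weights, 1 without both doubted arrays, 0 without array 1 of Htt25Q in the set alone, and 1 to 5 with single arrays left out, when 0 to 1 were higher. The 1 call with 6 arrays was NOG2, which was not among the 5. In mbf1Δ against bna4Δ 0 to 1 were lower and 1 to 2 higher with single arrays left out. There 2 were lower in the set alone, 1 with 6 arrays, 12 with weights and 2 without both doubted arrays, and 2 were higher with weights or without both doubted arrays. The array weights were those of an estimate that stopped before it converged. Some of these fits had fewer arrays, and the cause of these moves was not tested.

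Across the sets, the 3 lower in bna4Δ against Htt103Q became 1 with deposited values, 5 with weights and 1 to 5 with single arrays left out. The median of 0.60 became 0.77 with deposited and 0.38 with centred values. In mbf1Δ the 2 lower became 1 with deposited values, 1 with the replicate block, 4 with weights and 1 to 2 with single arrays left out, the 24 higher became 37 with weights, and the median became 0.81 with deposited values.

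The small minus large subunit median was 0.086 to 0.27 in Htt103Q against Htt25Q with single arrays left out. In ume1Δ against Htt103Q it was −0.14 to −0.0027, −0.14 without both doubted arrays and −0.13 with the UTP, IMP and NOP14 names alone. In ume1Δ against Htt25Q it was 0.07 with all arrays, −0.15 with weights, −0.15 without both doubted arrays and −0.04 without array 1 of Htt25Q. In bna4Δ against Htt103Q it was −0.42 to −0.25. In mbf1Δ against Htt103Q it was −0.31 to −0.055, and −0.28 with the mean of a gene's probe sets.

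Over 30 same-numbered pairs of arrays, the correlation of deviations from the group means was −0.17 to 0.43 and over 0.1 in 9. Pairs with unlike numbers were not set beside them, so these values cannot settle whether replicate numbers pair the arrays. With the replicate number as a block, 21 members were lower in Htt103Q against Htt25Q, 6 higher in ume1Δ against Htt103Q, 2 lower in ume1Δ against Htt25Q and 1 higher in mbf1Δ against bna4Δ.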
